A study of Mus musculus with 24 samples.

Results

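The genes of the autophagy machinery described here are the kinases Ulk1 and Ulk2, the lipid kinase subunits Becn1 and Atg14, the membrane effector Wipi1, the conjugation genes Atg5 and Atg7, the ubiquitin-like proteins Map1lc3b and Gabarapl1, and the cargo receptor Sqstm1. They were taken by name from the RNA-seq table, in which all 10 have a single row among 16572 gene names. RNA was sequenced from class IV oocytes, the biggest ones collected (60 to 70 μm in the sample labels, with a somewhat smaller range for the 20% O2 oocytes in the study's text), which had been released by enzymes from ovaries of mice at postnatal day 7 and grown without follicles. The labels give the strain as C57BL/6 Barb, whereas the study's text names F1 females on a C57BL6/Babr background and, in its methods, a cross of a C57 Black6 with an SV129 background. The study's culture medium contained fatty acid-free bovine serum albumin, epidermal growth factor and follicle stimulating hormone, with no drug treatment in either group. The IV 5% O2 oocytes (here 5% O2) were grown for 9 days in 5% oxygen. The IV 20% O2 oocytes (here 20% O2) were grown for 14 days in 20% oxygen. Culture time and the frequency of medium changes thus differ along with oxygen, and their effects cannot be told apart. The study describes support of the early culture by theca-like cells. Each condition has 2 libraries but a single deposited column, so the values given here have no SD, no replicate check and no p-value, and a difference between the columns could not be set against the spread between libraries.

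Autophagy encloses cytoplasm, organelles or protein aggregates in a double membrane, the autophagosome, which then fuses with the lysosome. The ULK kinase complex starts the process under the control of nutrient-sensing kinases, and a class III phosphatidylinositol 3-kinase (PI3K) complex marks the growing membrane with the lipid phosphatidylinositol 3-phosphate (PI3P), to which WIPI proteins bind. Ubiquitin-like proteins of the ATG8 family are then attached to the membrane by a conjugation machinery and are recognised by receptors that carry cargo. In mice, oocytes that lack Atg5 give embryos that fail early when the sperm brings no intact copy, and loss of Becn1 or Atg7 has been linked to loss of germ cells around birth.

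The depth that 1 read implies was 132185258 reads for the IV 5% O2 column and 40875358 reads for the IV 20% O2 column. Levels are RPM, the reads of a gene scaled to the depth of its column, and intervals are exact at 95% and cover counting error only, since the reads carry no molecular identifiers. Where a gene is without reads, 3 reads are the limit, which is 0.0227 RPM at 5% O2 and 0.0734 RPM at 20% O2. Differences are 5% O2 minus 20% O2 on log2(RPM + 1), a scale on which low genes appear to change less than they do, and 14704 genes with a mean of 1 RPM or more were compared. The median gene differed by 0.26. Summed over all genes, levels were 828571 RPM at 5% O2 and 726899 RPM at 20% O2, and the values as reported are not rescaled for this. All 12 oocyte markers had reads in both columns, and they summed to 9683 RPM at 5% O2, led by Gdf9, and to 13529 RPM at 20% O2, led by Zp2. The 11 theca and stroma markers that have a row, of 18 listed, summed to 46.1 RPM at 5% O2 and 7.17 RPM at 20% O2, where 3 of them (Col1a2, Dcn and Vim) were without reads. Cyp11a1, with 16.4 RPM at 5% O2, was the highest of these. Sums at 5% O2 and 20% O2 were 54.5 and 35.3 RPM for 8 of 12 granulosa markers, 24.9 and 22.6 RPM for 4 of 10 macrophage markers and 121 and 286 RPM for 5 of 8 endothelial markers, of which Vwf made up 55.5 and 248 RPM.

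All 10 autophagy genes passed the minimum level. At least 2-fold higher at 5% O2 was 1 of the 10, Wipi1, beside 18.7% of all genes tested, and at least 2-fold lower were 0 of the 10, beside 9.22% of all genes. The difference was above 0 for 8 of the 10, beside 62.6% of all genes, and 6 of the 10 lay above the median gene. With median-ratio scaling 4 of the 10 were above 0, and 7 were after quantile normalization. Of all genes at least 2-fold apart, 67.0% were the higher ones as deposited, 46.7% after the former scaling and 49.6% after the latter. The median log2 difference of the 10 genes was 0.30, close to the 0.26 of all genes, with a range from -0.66 at Ulk1 to 1.91 at Wipi1.

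**Figure D1:**
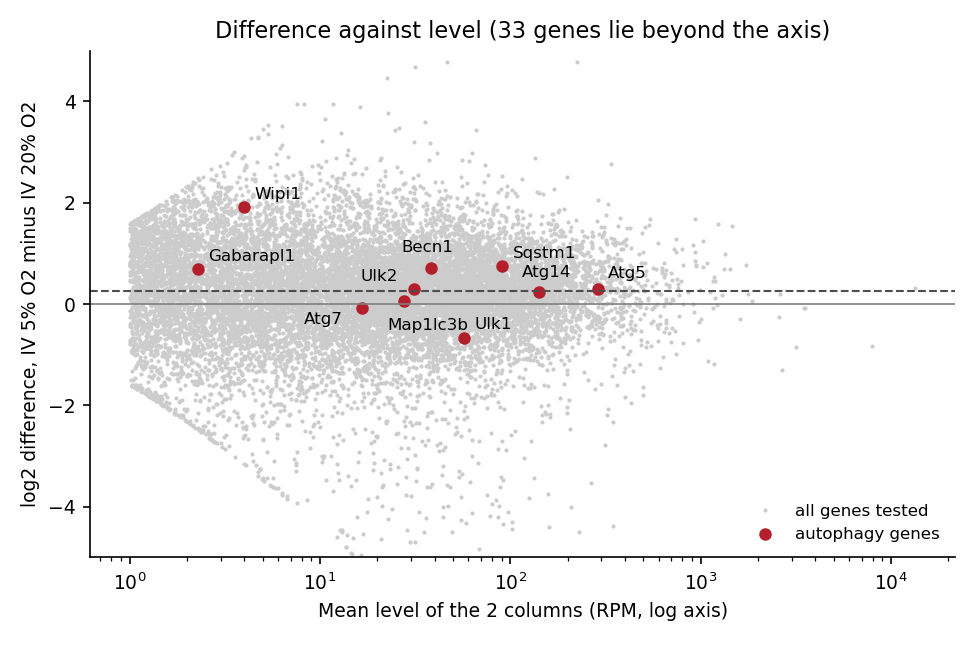
The log2 difference on log2(RPM + 1), 5% O2 minus 20% O2, is plotted against the mean level of both columns in RPM (log axis), in grey for the 14704 genes tested and in red for the 10 autophagy genes; the solid line is 0, the dashed line the median of all genes at 0.26, and 33 genes lie beyond the axis. Wipi1 and Ulk1 are the red points farthest from the dashed line, and the most abundant, Atg5, lies almost on it.

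Sequence before the annotated start sites is shown for Wipi1 and Ulk1, which had the highest and the lowest difference, and for Atg5 and Atg14, the highest members per length in both columns. The windows run from 250 bases before to 30 bases after the start and are RefSeq sequence on GRCm38.p6, printed 5′ to 3′ on the gene's strand, with each CACGTG in capitals.
Wipi1 (minus strand, chr11:109611360-109611639): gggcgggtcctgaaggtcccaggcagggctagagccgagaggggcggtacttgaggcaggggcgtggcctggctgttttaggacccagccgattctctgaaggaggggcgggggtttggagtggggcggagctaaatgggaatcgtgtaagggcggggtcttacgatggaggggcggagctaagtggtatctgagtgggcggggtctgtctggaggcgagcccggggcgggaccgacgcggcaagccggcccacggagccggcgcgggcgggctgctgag
Ulk1 (minus strand, chr5:110810052-110810331): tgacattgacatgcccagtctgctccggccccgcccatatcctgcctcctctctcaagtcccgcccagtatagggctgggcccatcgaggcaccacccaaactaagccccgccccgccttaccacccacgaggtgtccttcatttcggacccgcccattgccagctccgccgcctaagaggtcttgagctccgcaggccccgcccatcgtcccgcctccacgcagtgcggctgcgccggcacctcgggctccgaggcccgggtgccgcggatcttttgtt
Atg5 (plus strand, chr10:44268089-44268368): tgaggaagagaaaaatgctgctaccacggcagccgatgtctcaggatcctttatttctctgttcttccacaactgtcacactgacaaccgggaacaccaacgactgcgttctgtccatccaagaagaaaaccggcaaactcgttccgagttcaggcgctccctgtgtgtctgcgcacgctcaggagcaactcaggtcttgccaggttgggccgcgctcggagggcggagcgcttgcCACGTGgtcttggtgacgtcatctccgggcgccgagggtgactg
Atg14 (minus strand, chr14:47568405-47568684): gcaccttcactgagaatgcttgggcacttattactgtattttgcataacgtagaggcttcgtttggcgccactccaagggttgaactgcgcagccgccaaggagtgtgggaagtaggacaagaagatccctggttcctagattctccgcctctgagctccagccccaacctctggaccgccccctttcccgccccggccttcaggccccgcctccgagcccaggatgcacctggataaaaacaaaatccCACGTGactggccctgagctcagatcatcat

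The Atg5 window holds CACGTG, the centre of the element bound by the TFEB family of lysosomal transcription factors and a common E-box, 14 bases before the start. In the Atg14 window the same letters begin 1 base before the start, and in that of Atg7 they begin 132 bases before it. No capitals stand in the Wipi1 and Ulk1 windows. Searched on both strands in windows of 300 bases, CACGTG was found for 3 of the 9 members with a promoter entry and in 7.15% of all 32851 windows. ACGTG, a form of the core of the hypoxia response element, is part of CACGTG. It was found for the same 3 members, always inside CACGTG, and in 19.6% of all windows. The other form of the core, GCGTG, was not searched for, so these counts do not cover every such core. TGTTTAC, a FOXO motif, and TGATGNAA, a stress-response element of C/EBP and ATF factors, were found for 0 of the 9 and in 3.65% and 3.97% of all windows. The 3 genes with CACGTG, Atg5, Atg7 and Atg14, had differences of 0.30, -0.07 and 0.25, or 0.04, -0.33 and -0.01 relative to the median gene. The member windows had a median GC content of 63.3%, against 52.7% for all windows. The start of the printed Atg14 window lies 2215 bases inside the 5′ end of the row counted for that gene, that of Wipi1 578 bases and that of Atg7 27999 bases, so other annotated starts also feed those rows. The promoter of Becn1 is not shown.

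ULK1 and ULK2 are related serine/threonine kinases that start autophagy, and Ulk1 lay below the median gene while Ulk2 lay close to it. Ulk1, which lies at 110784488 to 110810097 on chromosome 5 (GRCm38, as for all coordinates), had 43.8 RPM (5793 reads) at 5% O2 and 69.9 RPM (2859 reads) at 20% O2. Its log2 difference of -0.66 was the lowest of the 10, or -0.92 relative to the median gene, and the ratio of its levels was 0.627 (interval 0.599 to 0.656). Ulk2 (chromosome 11, 61775649 to 61855073) had 34.6 RPM (4571 reads) and 28.0 RPM (1144 reads), a log2 difference of 0.30 that is 0.04 relative to the median gene. Per exonic kilobase, Ulk1 was 1.17 times the level of Ulk2 at 5% O2 and 2.30 times at 20% O2. Of the 100-base windows of Ulk1 exons, 8.02% occur more than once in the genome, the highest share of the 10, and 0 of those of Ulk2 do.

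BECN1 is the scaffold of the class III PI3K complex and ATG14 directs that complex to autophagosome formation. Becn1 (chromosome 11, 101285952 to 101302286) had 47.6 RPM (6295 reads) at 5% O2 and 28.9 RPM (1180 reads) at 20% O2. This is a log2 difference of 0.70, or 0.44 relative to the median gene, and a ratio of 1.65 (interval 1.55 to 1.76). Exons of Cntd1 on the opposite strand cover 43.9% of the exonic bases of Becn1. Cntd1 itself had 11.1 RPM at 5% O2 and 13.8 RPM at 20% O2, a difference of the other sign. The libraries are strand-specific, but whether the counting used the strand is not given in the sources used here, so reads of such pairs may not be fully separated. Atg14 (chromosome 14, 47540893 to 47570649) had 153 RPM (20234 reads) and 129 RPM (5266 reads). Its log2 difference of 0.25 lay 0.01 from the median gene, on the lower side (-0.01). Per exonic kilobase, Atg14 exceeded Becn1 5.25 times at 5% O2 and 7.30 times at 20% O2.

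WIPI1 binds PI3P on the forming membrane, and its gene had the largest difference of the 10. Wipi1, on chromosome 11 from 109573331 to 109611967, had 6.91 RPM (913 reads; interval 6.47 to 7.37) at 5% O2 and 1.10 RPM (45 reads; interval 0.803 to 1.47) at 20% O2. The intervals of the levels are far apart, and the ratio was 6.27 (interval 4.65 to 8.66). On log2(RPM + 1) the difference was 1.91, or 1.65 relative to the median gene, at percentile 96.7 of all genes tested. With a pseudocount of 5 RPM it was 0.96, just under 2-fold. None of the 100-base windows of Wipi1 is repeated in the genome. Summed over the 11 of 18 theca and stroma markers with a row, levels were also higher at 5% O2, with 46.1 against 7.17 RPM. Their part in the Wipi1 difference was not tested, and in pooled oocyte RNA more cells of another type and more RNA per cell cannot be told apart.

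ATG7 is the E1-like enzyme that activates the ubiquitin-like proteins ATG12 and ATG8, and ATG5 is the protein to which ATG12 is joined. Atg5 (chromosome 10, 44268358 to 44364291) had 317 RPM (41884 reads) at 5% O2 and 257 RPM (10514 reads) at 20% O2. Its log2 difference of 0.30 was 0.04 relative to the median gene. Atg7 (chromosome 6, 114643097 to 114860614) had 16.2 RPM (2139 reads) and 17.1 RPM (697 reads). The ratio of Atg7 was 0.949, with a counting interval of 0.871 to 1.04 that includes 1. Atg5 was the highest of the 10 genes per exonic kilobase in both columns and stood at percentile 98.8 of all genes with a known length. It exceeded Atg7 58.0 times at 5% O2 and 44.7 times at 20% O2, but the size of this gap depends on the length used. Divided by the longest annotated transcript, Atg5 exceeded Atg7 32.4 times at 5% O2, and they had 109 and 4.38 RPM per kilobase at 20% O2.

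MAP1LC3B and GABARAPL1 belong to the 2 branches of the ATG8 family, which coat the membrane and bind receptors. Map1lc3b (chromosome 8, 121590361 to 121598760) had 28.3 RPM (3742 reads) at 5% O2 and 27.1 RPM (1106 reads) at 20% O2, a ratio of 1.05 whose interval of 0.978 to 1.12 includes 1. Gabarapl1 (chromosome 6, 129533160 to 129542346) was low in both columns, with 3.06 RPM (405 reads) and 1.52 RPM (62 reads). The ratio of Gabarapl1 was 2.02 (interval 1.54 to 2.68), whereas its difference on log2(RPM + 1) was 0.69, so its place past 2-fold depends on the pseudocount. Without a pseudocount 2 of the 10 genes were at least 2-fold higher, beside 23.0% of all genes tested, and 0 at least 2-fold lower, beside 11.3%. Exons of 1700101I11Rik on the opposite strand cover 28.3% of the exonic bases of Gabarapl1.

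SQSTM1, also called p62, links ubiquitinated cargo to ATG8 proteins and is itself degraded with the cargo. Sqstm1 (chromosome 11, 50199366 to 50210827) had 114 RPM (15031 reads) at 5% O2 and 67.0 RPM (2738 reads) at 20% O2. The ratio was 1.70 (interval 1.63 to 1.77) and the log2 difference 0.75, or 0.50 relative to the median gene. Exons of Mrnip on the opposite strand cover 17.3% of the exonic bases of Sqstm1. Mrnip differed the same way, with 59.0 and 31.0 RPM, and its part in the Sqstm1 difference was not tested.

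**Figure D2:**
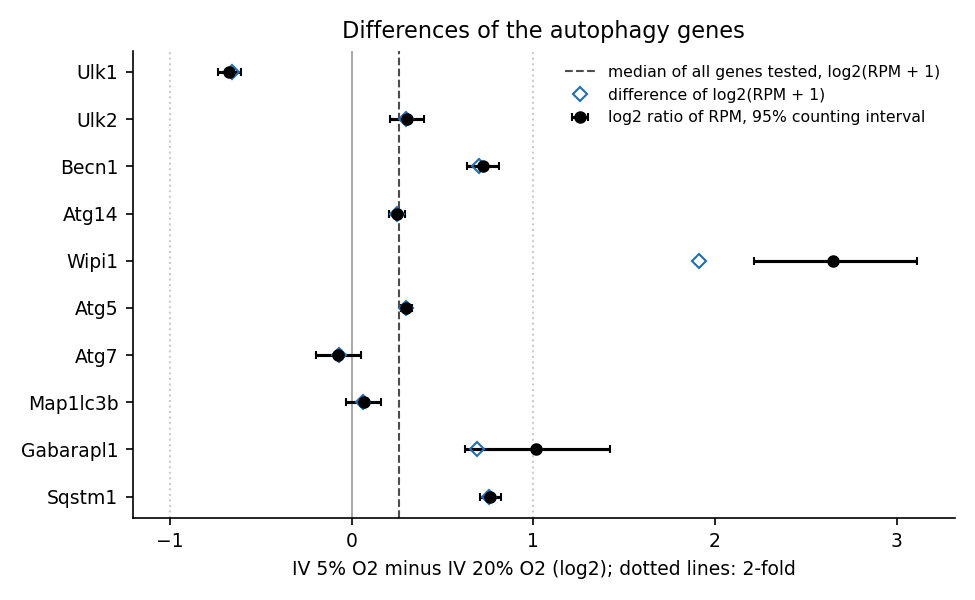
Differences of the 10 autophagy genes, 5% O2 minus 20% O2, are plotted on a log2 axis as the ratio of RPM with its 95% counting interval (black points and bars) and on log2(RPM + 1) (open diamonds); dotted lines mark 2-fold and the dashed line the median of all genes on log2(RPM + 1), at 0.26. Wipi1 is the only gene past 2-fold on both scales, Gabarapl1 is past it only as a ratio, Ulk1 lies below 0, and the bars of Atg7 and Map1lc3b cross 0.

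In the order of levels per exonic kilobase, Atg5 (135 RPM per kilobase) led at 5% O2, followed by Atg14 (35.4), Sqstm1 (33.9), Ulk1 (6.75), Becn1 (6.74), Ulk2 (5.79), Map1lc3b (3.77), Atg7 (2.32), Wipi1 (1.57) and Gabarapl1 (1.52). In that column Ulk1 and Becn1, and likewise Wipi1 and Gabarapl1, had overlapping counting intervals and could not be ordered. At 20% O2 the order was Atg5 (109 RPM per kilobase), Atg14 (29.8), Sqstm1 (20.0), Ulk1 (10.8), Ulk2 (4.68), Becn1 (4.09), Map1lc3b (3.60), Atg7 (2.45), Gabarapl1 (0.754) and Wipi1 (0.250), with no overlap between neighbours. Becn1 thus stood above Ulk2 at 5% O2 and below it at 20% O2. The highest gene exceeded the lowest 88.5 times at 5% O2 and 438 times at 20% O2. Dividing by the longest annotated transcript in place of all exonic bases changed the rank of 6 genes at 5% O2 and of 3 at 20% O2, with Atg5 first and Gabarapl1 and Wipi1 last in each case. By that length Becn1 was above Ulk2 in both columns, with 10.9 and 6.02 RPM per kilobase at 5% O2 and 6.61 and 4.87 at 20% O2, so their change of order depends on the length used.

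**Figure D3:**
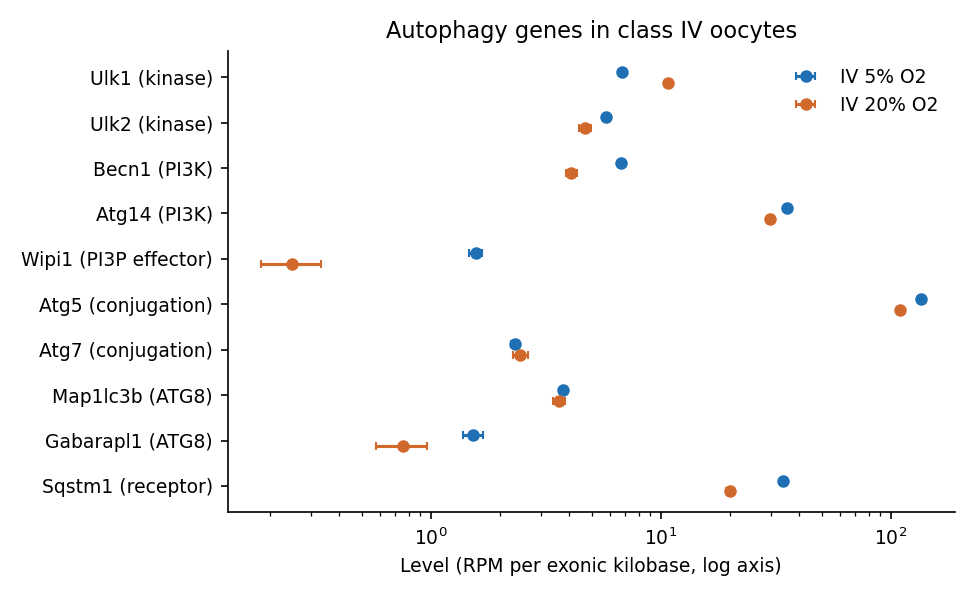
Levels of the 10 autophagy genes in RPM per exonic kilobase (log axis) are plotted for 5% O2 (blue) and 20% O2 (orange), with bars for exact 95% Poisson intervals of the reads and the step of autophagy in brackets. Atg5 stands alone at over 100 in both columns, and the gap between the colours is widest for Wipi1, at 1.57 and 0.250.

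Position and sequence of the genes were not used in their selection. On chromosome 11 lie 4 of the 10 (Becn1, Sqstm1, Ulk2 and Wipi1), beside 7.21% of all genes tested; they had differences from 0.30 to 1.91, all above the median gene. The exons of the 10 genes cover 2013 to 7517 bases, with a median of 5194 beside 4117 for all genes, and have a median GC content of 50.7% beside 48.9%. Repeated 100-base windows were absent from 8 of the 10 genes, near the 10966 of 14403 among all genes with a known length, and Map1lc3b, with 4.01%, was the only one besides Ulk1 to have any.

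The rest of the pathway was described with 10 lists, in which the 10 genes are included, and 98 of 98 genes had a row and were tested. Of these, 13 were at least 2-fold higher at 5% O2 (13.3%, beside 18.7% of all genes) and 6 at least 2-fold lower (6.12%, beside 9.22%). Their median log2 difference was 0.16, or 0.14 for the 88 genes other than the 10, beside 0.26 for all genes. Both scalings tried turned the median of the 98 genes negative, -0.15 by median ratio and -0.06 by quantiles. The median of all genes also fell, to -0.03 and 0.06. By median ratio 9 of the 98 genes were at least 2-fold higher and 11 lower, beside 1758 and 2003 of the 14704 genes, and by quantiles 11 and 8, beside 1799 and 1831.

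Among the 5 genes of the ULK complex, 1 was at least 2-fold higher (20%, beside 18.7% of all genes). This was Rb1cc1, which encodes the large scaffold FIP200, with 340 RPM at 5% O2 and 144 RPM at 20% O2. Of the 8 genes of the class III PI3K complexes, 2 were at least 2-fold higher (25%, beside 18.7% of all genes). Rubcn, which encodes the inhibitor Rubicon, had 796 and 270 RPM, a difference of 1.56, and Uvrag, whose product replaces ATG14 in a second form of the complex, had 253 and 96.2 RPM, a difference of 1.38. Per exonic kilobase Rubcn had 107 and 36.1 RPM, above Becn1 and Atg14 in both columns. The 6 genes of ATG9 and lipid transfer all stayed within 2-fold, with Atg2b, a lipid transfer protein gene, farthest at -0.79. Of the 5 genes of PI3P effectors, Wipi1 was the only one past 2-fold, and the related Wipi2 had 48.6 RPM at 5% O2 and 56.0 RPM at 20% O2, a difference of -0.20.

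On log2(RPM + 1) all 11 conjugation genes were within 2-fold, from -0.69 at the protease gene Atg4d to 0.65 at Atg16l2. Atg4d was low, with 0.772 and 1.86 RPM, and its ratio of 0.415 (interval 0.305 to 0.566) is past 2-fold without the pseudocount. Atg12 had 208 RPM at 5% O2 and 184 RPM at 20% O2, and Atg16l1, whose product places the ATG12 and ATG5 conjugate on the membrane, had 227 and 209 RPM. In the ATG8 family, Gabarap was the only one of 5 genes past 2-fold on that scale and was lower, with 3.96 RPM (524 reads) at 5% O2 and 11.8 RPM (483 reads) at 20% O2. This is a difference of -1.37, opposite in sign to that of its relative Gabarapl1.

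The 15 receptor genes had the highest list median, 0.75, and 10 of them lay above the median gene. Of the 15, 5 were at least 2-fold higher (33.3%, beside 18.7% of all genes) and 2 at least 2-fold lower (13.3%, beside 9.22%). Optn, which encodes a receptor for ubiquitinated mitochondria and bacteria, had 79.3 RPM at 5% O2 and 17.5 RPM at 20% O2, a difference of 2.12, and Calcoco1, a gene for a receptor of endoplasmic reticulum and Golgi membrane, had 106 and 25.1 RPM, a difference of 2.03. Lower were Ncoa4, the ferritin receptor gene, with 104 and 211 RPM, and Wdfy3, which encodes an aggregate adaptor, with 85.3 and 172 RPM. Both lay just past 2-fold, Ncoa4 with a difference of -1.02, and 27.4% of the windows of Ncoa4 are repeated in the genome.

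In the 14 genes of fusion with the lysosome, Rab7 (178 RPM at 5% O2 and 73.5 RPM at 20% O2) and the SNARE gene Stx17 (49.3 and 23.5 RPM) were at least 2-fold higher and the tether gene Epg5 (129 and 279 RPM) at least 2-fold lower. These shares are 14.3% higher and 7.14% lower, beside 18.7% and 9.22% of all genes. Of the 20 lysosome genes, 3 lay above the median gene, and the list median was -0.30, the lowest of the 10 lists. At least 2-fold higher was 1 of the 20 (5%) and at least 2-fold lower were 2 (10%), beside 18.7% and 9.22% of all genes. The higher one was Ctsz, a cathepsin gene, with 4.20 RPM at 5% O2 and 1.13 RPM at 20% O2. Of the 9 genes of the TFEB family and AMPK, 1 was at least 2-fold higher (11.1%, beside 18.7% of all genes). This was Tfeb, the transcription factor gene for lysosome biogenesis, with 9.19 RPM (1215 reads) and 2.23 RPM (91 reads). Its relative Tfe3 differed by 0.08, with 92.5 and 87.2 RPM.

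**Figure D4:**
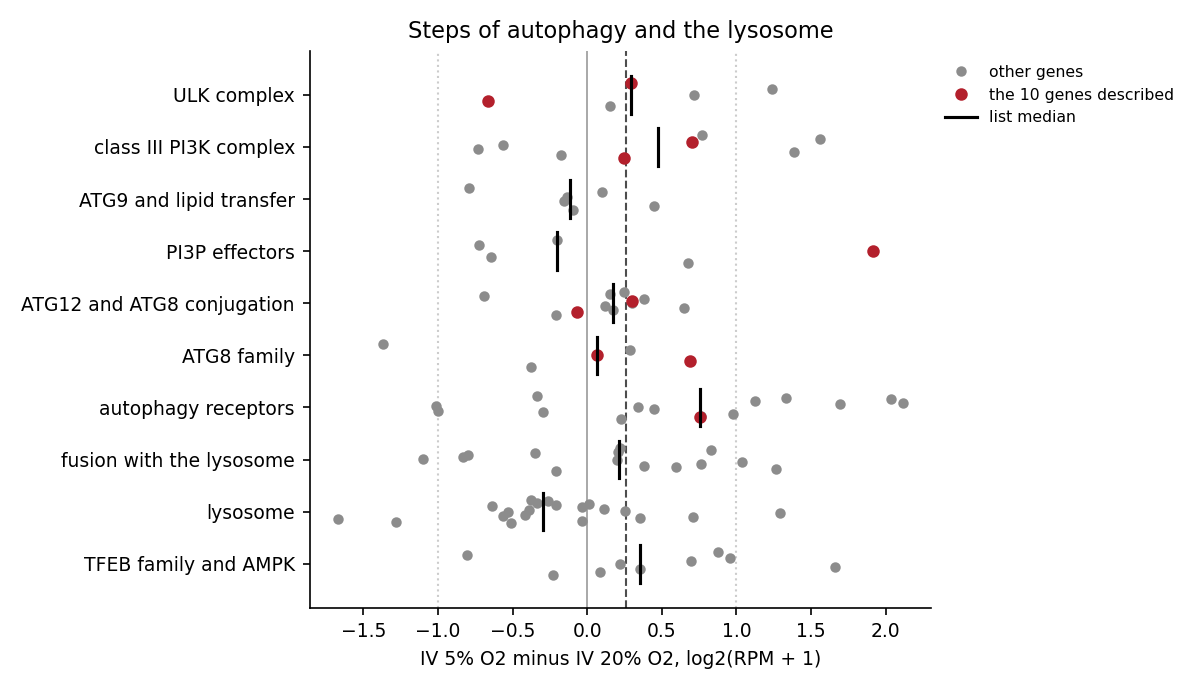
Each point is a gene, placed by its log2 difference on log2(RPM + 1), 5% O2 minus 20% O2, in 1 of 10 lists of steps of autophagy and the lysosome; red points are the 10 genes described, black bars the list medians, dotted lines 2-fold and the dashed line the median of all genes at 0.26. The median bar is highest for the receptors, at 0.75, and lowest for the lysosome genes, at -0.30.

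The size of the differences also depended on how the columns were scaled. Median-ratio scaling placed the median gene at -0.03 in place of 0.26, and with it Ulk2, Atg5 and Atg14 slightly below 0 and Map1lc3b at -0.25. Wipi1, Sqstm1, Becn1 and Gabarapl1 stayed above 0 and Ulk1 and Atg7 below 0 under both scalings. The other settings could not change the sign of these genes. For Atg7 the counting interval of the ratio includes no difference.

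**Figure D5:**
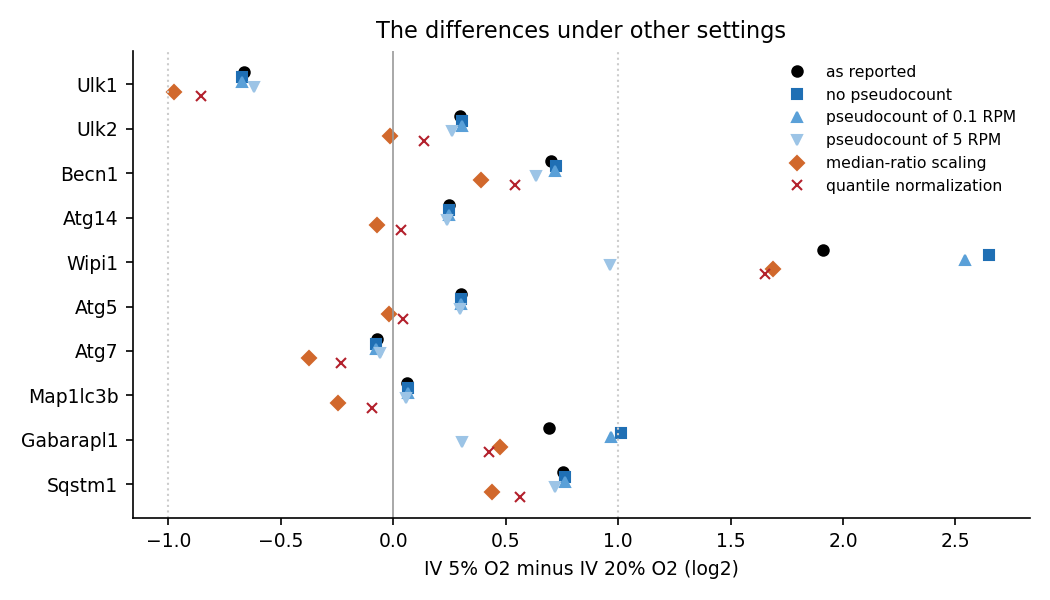
The log2 difference of each of the 10 autophagy genes, 5% O2 minus 20% O2, is plotted as reported on log2(RPM + 1) (black circles), with no or other pseudocounts (blue squares and triangles), with median-ratio scaling (orange diamonds) and with quantile normalization (red crosses); dotted lines mark 2-fold. The pseudocount moves Wipi1 and Gabarapl1, from 0.96 to 2.65 for Wipi1, while the scalings shift all 10 genes to lower values.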

How the data were processed

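RNA-seq of class IV oocytes, 2 libraries per condition, was used; the RRBS and PBAT libraries were not analysed here. The authors aligned reads to mm10 (GRCm38) with TopHat2 2.0.9, merged them across exons and deposited log2 values, in 1 column per condition, as RPKM. How the libraries were combined is not given in the sources used here. Linear values were whole multiples of 1 step (within 0.02 reads for 99.4% and 100.0% of rows), so they were read as log2 RPM with no length correction, and the row minimum, 0.9 of 1 read, as 0. Another value column, 1 in number, matches none of the samples and was not used.

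Of 16591 rows, each of 18 repeated names was represented by its row of highest mean. Ratios have Clopper-Pearson and levels Poisson intervals. A test with edgeR or limma, planned for values per library, could not be run. Exonic lengths, overlaps and repeated windows of 100 bases, every 10 bases, came from GENCODE M21 and the GRCm38 genome (22 sequences), where 16054 rows have exactly the annotated coordinates; promoters came from RefSeq. The genes and lists were chosen with earlier results of these data known. Named were the 10 genes, and of each list those at least 2-fold apart, or, if over 4, the 2 largest rises and 2 largest falls, or, if none, the largest difference; genes named beyond that were chosen after their values were seen. Some genes that the rule selects are not reported here. Alternatives were pseudocounts of 0.1 and 5 RPM, a filter at a mean of 5 RPM or none, median-ratio and quantile scaling, summed rows, under 10% repeated windows, the longest transcript and, added after the data were seen, no pseudocount and the median without Wipi1. Scripts were tested on simulated data. The software was scipy 1.17.1, numpy 2.4.6 and pandas 2.3.3 under Python 3.11.15, with matplotlib 3.10.9 for plots and numba 0.67.0 for the window search.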

Additional observations from a re-analysis of the deposited data

How the results depend on the processing

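No paired analysis was possible because neither deposited column can be split by library, so no replicate block was fitted, no replicate was left out and neither edgeR, limma nor DESeq2 was run. Of the 10 genes, 1 was at least 2-fold higher as reported, 0 with a pseudocount of 5 RPM, 0 at a mean of at least 5 RPM, where Wipi1 and Gabarapl1 are left out by the filter, and 2 without a pseudocount, a setting chosen after the data were seen. Their median of 0.30 became -0.0165 with median-ratio scaling and moved to 0.0901 under quantile normalization. Without Wipi1 it was 0.30. Of the 98 genes of the lists, 6 were at least 2-fold lower as reported, 2 with a pseudocount of 5 RPM and 11 with median-ratio scaling. Of the 10 genes, 4 turned negative with median-ratio scaling (Atg5 -0.0188, Atg14 -0.0705, Ulk2 -0.0141, Map1lc3b -0.25) and Map1lc3b also after quantile normalization (-0.0926). The shifts by median-ratio scaling follow from its single factor per column; the cause of the others was not tested. Among the remaining single-gene values, 14 moved by more than the wider side of their counting interval with the same sign and 69 did not. Many of the 69 could not move, since the filters, summed rows and the repeat limit leave a single gene's value unchanged here. Over all genes, 2753 were at least 2-fold higher and 1356 lower as reported, 1202 and 706 with a pseudocount of 5 RPM, 1758 and 2003 by median ratio, 1799 and 1831 by quantiles, 1691 and 917 at a mean of at least 5 RPM. The 45 reads of Wipi1 and 62 of Gabarapl1 at 20% O2 limit the precision of their ratios.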

Other observations

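Beside Optn and Calcoco1, the other receptor genes at least 2-fold higher at 5% O2 were Fkbp8, Bnip3 and Phb2, named here after their values were seen. Their products sit on or in mitochondria and have been described as receptors for the removal of mitochondria. Fkbp8 had 87.4 RPM at 5% O2 and 26.3 RPM at 20% O2, a ratio of 3.33 (interval 3.12 to 3.54). Bnip3, also known as a target of hypoxia-inducible factors, had 48.5 and 18.6 RPM, a ratio of 2.60 (interval 2.41 to 2.81), and 18.3% of its 100-base windows are repeated in the genome. Phb2 had 172 and 78.1 RPM. The related genes Bnip3l, with 147 and 125 RPM, and Fundc1, with 22.4 and 28.5 RPM, were within 2-fold.

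The letters CACGTG were present in a promoter window of 19 of the 79 genes of the lists that have an entry (24.1%), beside 8.09% of all 27025 genes with one. ACGTG, which CACGTG contains, was present for 39 of the 79 (49.4%, beside 21.8%), TGATGNAA for 2 (2.53%, beside 4.51%) and TGTTTAC for 0 (beside 4.05%). The 27025 genes were neither limited to the genes tested nor matched for GC content. The part of base composition in these shares was not tested.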
